A study of Caenorhabditis elegans with 8 samples.

Results

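A set of 10 genes that act in the choice of sex in *C. elegans* and in setting the germline on the path to sperm or oocytes were followed here in whole-body RNA: *xol-1*, *her-1*, *tra-1*, *tra-2*, *tra-3*, *fem-1*, *fem-2*, *fem-3*, *fog-1* and *fog-3*. They were picked by gene symbol, and 10 of 10 symbols matched 1 gene each among the 46926 genes of the count table. The study asks how loss of *smrd-1*, the worm counterpart of the chromatin remodeler SMARCAD1, acts on tau pathology, and its RNA sequencing compared 4 libraries labelled non-Tg with 4 libraries labelled *smrd-1* Δ#1. Non-Tg is the wild-type strain N2. *smrd-1* Δ#1 (allele bk3122) is 1 CRISPR-Cas9 strain that lacks the first exons of the gene, including its helicase and ATP-binding part. None of these animals carried a tau transgene, and both strains were grown at 20 °C on plates of *E. coli* OP50. The extraction protocol gives the stage as L4, the last larval stage, whereas the design text calls the worms adults. Whole animals were lysed, so soma and germline are mixed in every value. The sources do not say that replicates came from separate cultures, so p-values measure the spread between these libraries, which may be technical.

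Sex in *C. elegans* follows the ratio of X chromosomes to autosomes. A high ratio keeps *xol-1* off, and the secreted protein HER-1 is then not made. Without HER-1, the receptor TRA-2 holds back the FEM proteins, and the zinc finger factor TRA-1 stays active and directs hermaphrodite development. In males HER-1 blocks TRA-2, and the FEM proteins lead to the loss of TRA-1. The hermaphrodite germline uses the same genes in time: it makes sperm during the last larval stage, for which FOG-1 and FOG-3 are needed, and then switches to oocytes once *fem-3* mRNA is held back.

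Libraries held 74704022 to 78008833 assigned counts, so that 3 counts, the floor used here, came to between 0.0385 and 0.0402 CPM (counts per 1000000 counts of the library). A read pair could add 2 counts, so a count here is not a count of read pairs. Values below are CPM after TMM scaling unless another scale is named. The count of *smrd-1* over its whole gene model went against the labels. It was 47.9 ± 3.93 CPM (SD, n = 4) under the non-Tg label and 85.1 ± 4.35 (SD, n = 4) under the *smrd-1* Δ#1 label, a log2 fold change of 0.83 (SE 0.0813, edgeR quasi-likelihood test, adjusted p = 0.00889; 0.0574 without *smrd-1* Δ#1 replicate 1). Counts per exon were not analysed here, so this value does not check the deletion, and groups go by label only: "under the non-Tg label" means in the libraries so labelled. Replicates 1 and 2 also stood apart from replicates 3 and 4: in 43.5% of the 16808 genes tested, both later-numbered libraries lay above, or both below, the other pair, in the same direction in each group. The labels name no batch for this division, which was known from earlier results of these data.

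No member passed the test between the labelled groups. edgeR called 0 of the 10 genes at an adjusted p of at most 0.05, beside 26 of all genes tested (0.155%; 15 higher, 0.0892%, and 11 lower, 0.0654%), and 0 at an unadjusted p under 0.05, beside 7.74% of all genes. DESeq2 called 0 of the 10 as well, beside 1.71%, with 0 at an unadjusted p under 0.05, beside 10.8%. The groups overlapped for every one of the 10 genes, whereas 5.2% of all genes had groups that did not overlap. Among the 10 genes, 5 had fold changes above 0 and 5 below, with a median log2 fold change of −0.02 beside −0.01 over all genes tested. The width of the intervals set what could be seen. For *fem-1* the 95% interval ran from −0.08 to 0.20 on the log2 scale, and for *her-1* from −1.52 to 0.55.

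**Figure D1:**
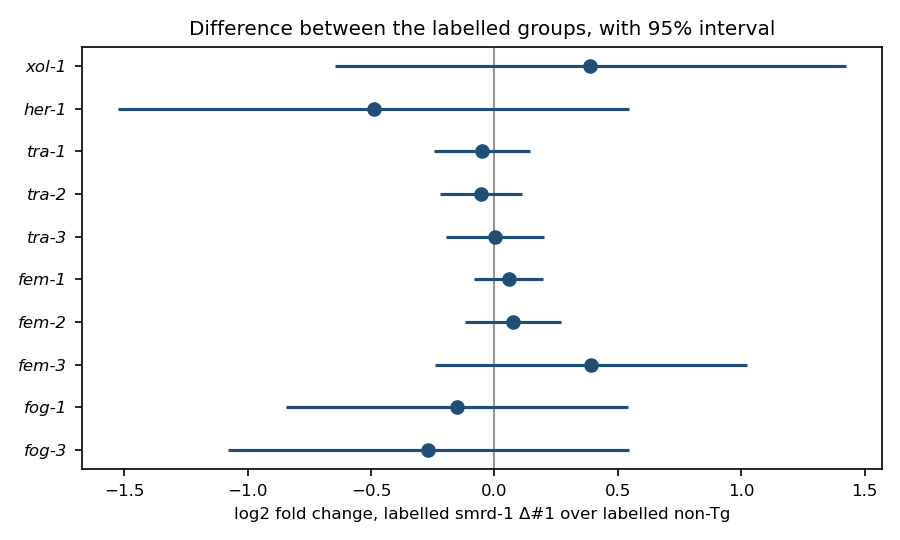
Log2 fold change of each of the 10 genes, libraries labelled smrd-1 Δ#1 over those labelled non-Tg (x axis), with points for the edgeR estimate and lines for its 95% interval. Every interval crosses 0; those of tra-1, tra-2, tra-3, fem-1 and fem-2 are narrow and those of xol-1, her-1, fem-3, fog-1 and fog-3 are wide.

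Per length of exon the genes spanned a wide range. Expressed as CPM per kilobase of merged exon (RPKM, mean over 8 libraries), *fem-2* was at 29.2 ± 2.23 (SD) and *fem-1* at 26.6 ± 0.957. *tra-1* followed at 16.8 ± 1.24 and *tra-3* at 13.6 ± 0.925. The ranges of *fem-1* and *tra-1*, and those of *tra-1* and *tra-3*, did not overlap. *fog-3* at 10.8 ± 4.06, *tra-2* at 8.62 ± 0.451, *fem-3* at 7.85 ± 2.69 and *fog-1* at 5.75 ± 1.85 formed a middle group in which each overlapped its neighbour. *fem-2* and *fem-1* overlapped too, as did *tra-3* and *fog-3*. The 2 genes that act at the top of the male pathway were lowest by far, with *xol-1* at 0.351 ± 0.14 and *her-1* at 0.21 ± 0.0843 RPKM. The mean of *fog-1* was 16.4-fold that of *xol-1*, while the ranges of *xol-1* and *her-1* overlapped.

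**Figure D2:**
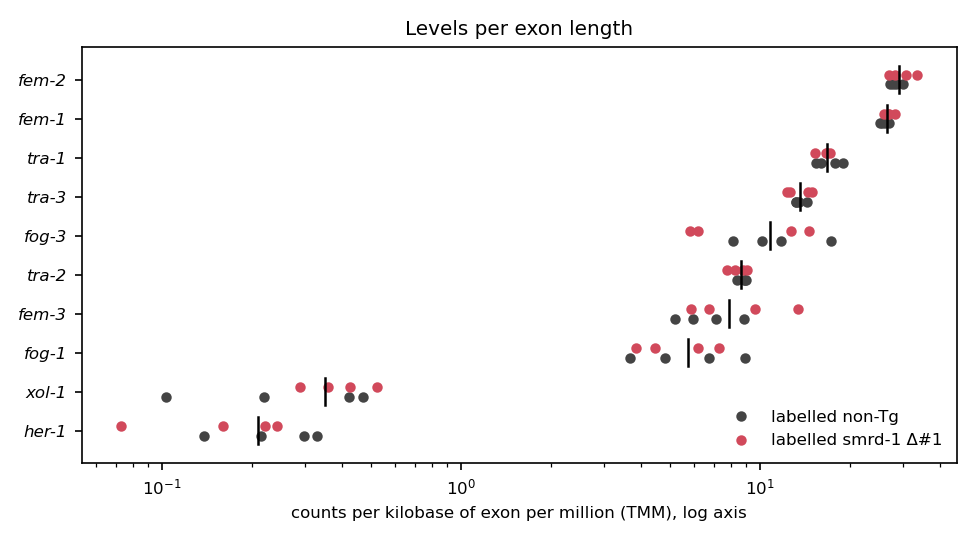
Level of each gene in CPM per kilobase of merged exon (x axis, log scale) in the 8 libraries, with points coloured by labelled group and a bar at the mean. The genes xol-1 and her-1 lie apart from the other 8, and the mean of fog-1, the next above, is 16.4-fold that of xol-1.

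*xol-1*, the switch that reads the X dose and is needed for male development, lies on chromosome X from 8041313 to 8044409 on the plus strand (WBcel235, as are all positions here). It drew 40, 18, 80 and 94 counts under the non-Tg label (replicates 1 to 4) and 64, 52, 100 and 84 under the *smrd-1* Δ#1 label. These counts were 0.538, 0.253, 1.04 and 1.16 CPM against 0.881, 0.712, 1.28 and 1.05 CPM. The lowest library was non-Tg replicate 2, and in both groups replicates 3 and 4 were above replicates 1 and 2. The log2 fold change was 0.39 (SE 0.454, edgeR adjusted p = 0.79), and without 1 library at a time it ranged from 0.10 to 0.68. In replicates 1 and 2 the labelled groups differed by 1.01 on the log2 scale and in replicates 3 and 4 by 0.08.

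*her-1* encodes the secreted ligand of males and lies on chromosome V from 9697015 to 9702035 on the plus strand. It had 18, 24, 12 and 30 counts under the non-Tg label and 6, 20, 14 and 20 under the *smrd-1* Δ#1 label, above the floor of 3 counts in each. All of these counts were even, and a read pair could add 2 counts, so fewer read pairs may lie behind them. The means were 0.276 ± 0.0971 and 0.196 ± 0.0856 CPM (SD, n = 4 each). The log2 fold change was −0.49 (SE 0.455, edgeR adjusted p = 0.747), and *her-1* in *smrd-1* Δ#1 replicate 1 was the lowest of the 8 values. Without that library the fold change was −0.24, and without 1 library at a time it ranged from −0.70 to −0.24. At so few counts a difference within the interval given above could not be seen. Markers of male neurons were also low, and most were near 0. The 7 such genes summed to between 0.694 and 2.06 CPM, and *pkd-2* and *lov-1*, which male sensory neurons need for mating, were at 0 counts in 2 libraries each. *cwp-3* was at 0 in 7 libraries and *cwp-1* at 0 in 5. In contrast, *cwp-4*, with up to 74 counts, and *cwp-5*, with up to 48, were detected in all 8 libraries.

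The receptor and the protease that acts on it varied little across the libraries. *tra-2*, on chromosome II from 6955384 to 6965673 on the minus strand, was at 45.6, 42.5, 45.1 and 44.8 CPM under the non-Tg label and 45.8, 44.5, 39.2 and 41.8 under the *smrd-1* Δ#1 label. Its log2 fold change was −0.05 (SE 0.073, edgeR adjusted p = 0.81). The coefficient of variation over the 8 libraries was 5.23%, where the 10th percentile of all genes tested was 7.11% and the median was 22.5%. Over the 10422 of these genes with at least 5 CPM the median was 14.6%. *tra-3*, the calpain protease, lies on chromosome IV from 14436445 to 14444183 on the minus strand. It ranged from 33 to 35.9 CPM under the non-Tg label and from 30.8 to 37.3 under the *smrd-1* Δ#1 label. The 2 lowest *tra-3* values were *smrd-1* Δ#1 replicates 3 and 4, which were also lowest for *tra-2*. The *tra-3* fold change was 0.003 on the log2 scale (SE 0.0872, edgeR adjusted p = 0.99) and its sign turned under several alternatives.

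The 3 FEM genes differed in how much they varied over the 8 libraries, with coefficients of variation of 3.6% for *fem-1*, 7.65% for *fem-2* and 34.2% for *fem-3*. *fem-1*, which encodes an ankyrin repeat protein that brings TRA-1 to a ubiquitin ligase, lies on chromosome IV from 5533140 to 5537962 on the minus strand. It was the steadiest of the 10 genes, from 59.3 to 63.4 CPM under the non-Tg label and from 61.3 to 66.5 under the *smrd-1* Δ#1 label. Its log2 fold change was 0.06 (SE 0.0608, edgeR adjusted p = 0.772). *fem-2*, a protein phosphatase of the same complex on chromosome III from 632019 to 634626 on the minus strand, was at 51.1, 48.9, 54.2 and 49.9 CPM and at 50.9, 48.4, 60.3 and 55.4 CPM. Its 2 highest values were in *smrd-1* Δ#1 replicates 3 and 4, apart by little from non-Tg replicate 3, and the log2 fold change was 0.08 (SE 0.0846, edgeR adjusted p = 0.784).

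*fem-3*, the member of this complex whose mRNA is held back at the switch to oocytes, lies on chromosome IV from 9104966 to 9107607 on the plus strand. It was at 10, 8.7, 14.8 and 12 CPM under the non-Tg label and at 9.85, 11.3, 22.4 and 16.2 under the *smrd-1* Δ#1 label. Replicates 3 and 4 were above replicates 1 and 2 in both groups, by 0.52 and 0.86 on the log2 scale, and the highest library was *smrd-1* Δ#1 replicate 3. Between the labelled groups the log2 fold change was 0.39 (SE 0.278, edgeR adjusted p = 0.706), from 0.12 to 0.55 without 1 library at a time. Taken within replicates 1 and 2 it was 0.18, and within replicates 3 and 4 it was 0.52.

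*tra-1*, the zinc finger factor at the end of the pathway, lies on chromosome III from 11170890 to 11195201 on the minus strand. It was the most counted of the 10 genes, at 94.9, 88.9, 79.9 and 76.8 CPM under the non-Tg label and 85.1, 83.6, 83.5 and 76.5 under the *smrd-1* Δ#1 label. Its log2 fold change was −0.05 (SE 0.0847, edgeR adjusted p = 0.845). Replicates 3 and 4 were below replicates 1 and 2 in both groups, although only 83.6 and 83.5 CPM separated the 2 sets under the *smrd-1* Δ#1 label.

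The genes that commit germ cells to sperm varied about as much as *fem-3*, with coefficients of variation of 32.2% for *fog-1* and 37.5% for *fog-3*. *fog-1* encodes an RNA-binding protein of the CPEB family and lies on chromosome I from 3211046 to 3217267 on the plus strand. It was at 14.3, 18.9, 10.2 and 7.82 CPM under the non-Tg label and 15.4, 13.2, 9.43 and 8.13 under the *smrd-1* Δ#1 label. Every library numbered 3 or 4 was below every library numbered 1 or 2, by 0.88 on the log2 scale in the non-Tg group and 0.70 in the other. Its log2 fold change between labelled groups was −0.15 (SE 0.304, edgeR adjusted p = 0.871), and it was 0.10 without non-Tg replicate 2.

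*fog-3*, a Tob/BTG family protein that acts with FOG-1, lies on chromosome I from 10016765 to 10018121 on the plus strand. It was at 11.8, 17.3, 8.1 and 10.1 CPM under the non-Tg label and 14.6, 12.7, 5.81 and 6.17 under the *smrd-1* Δ#1 label. The 2 lowest libraries were *smrd-1* Δ#1 replicates 3 and 4, and the highest was non-Tg replicate 2. The log2 fold change was −0.27 (SE 0.357, edgeR adjusted p = 0.81), from −0.52 to −0.03 without 1 library at a time. In replicates 3 and 4 alone the edgeR fit gave −0.60 (SE 0.159, adjusted p = 0.0483), the only call of a member under any alternative run, in a fit that called 12.2% of all genes from 2 libraries a group. In replicates 1 and 2 the difference was −0.09, and the fit to those libraries alone called no member, beside 1.62% of all genes. The difference between these 2 sets was not tested.

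**Figure D3:**
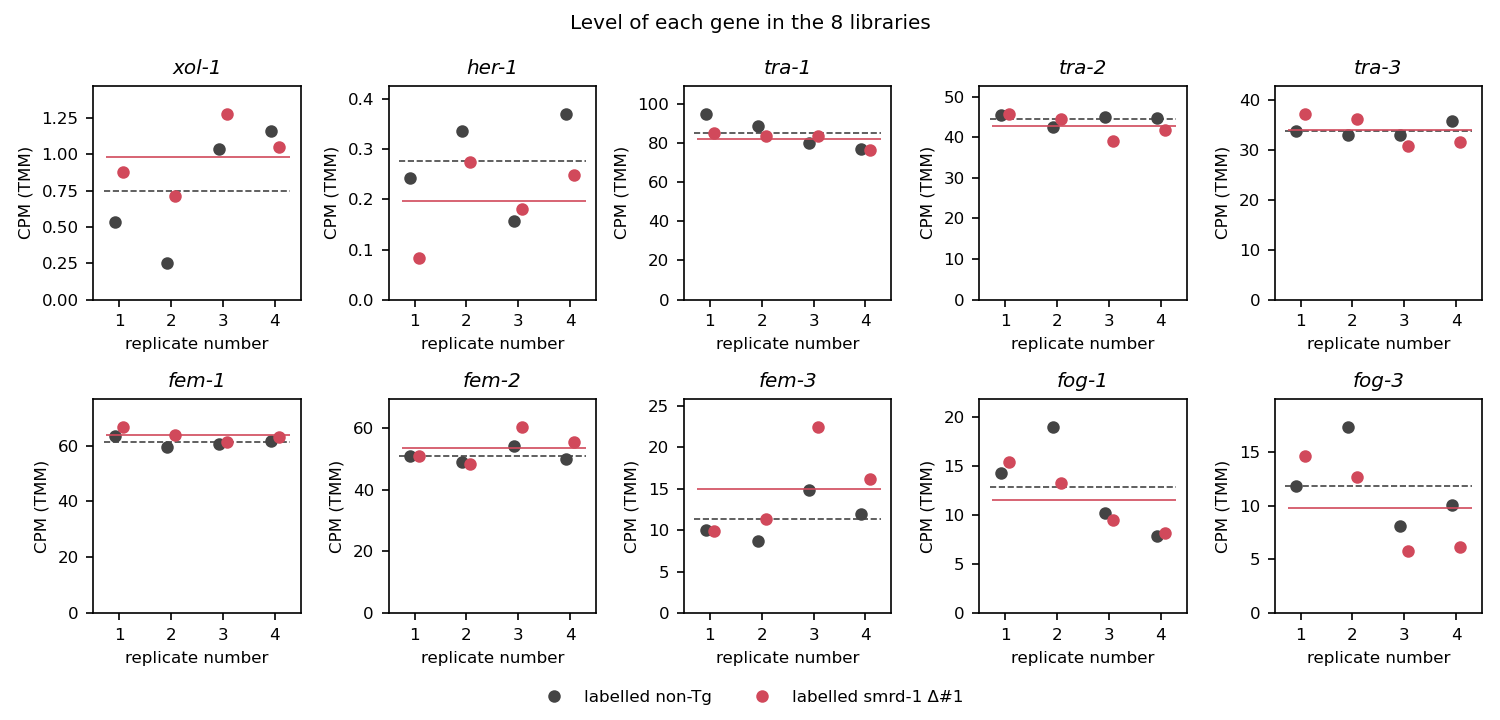
CPM after TMM scaling (y axis, from 0) of the 10 genes by replicate number (x axis), with points coloured by labelled group and horizontal lines at the group means (dashed for non-Tg, solid for smrd-1 Δ#1). In fog-1 and fog-3, replicates 3 and 4 sit below replicates 1 and 2 in both groups, and in fem-3 and xol-1 they sit above.

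By replicate number, *fog-1*, *fog-3* and *tra-1* were lower and *fem-3* and *xol-1* higher in replicates 3 and 4 of both groups. The 3 lower genes stand beside 22.1% of all genes tested, the 2 higher beside 21.4%, and the 5 of 10 together beside 43.5%, so the share is near the background and says nothing particular about the members. *fog-1* ranged from 13.2 to 18.9 CPM in replicates 1 and 2 and from 7.82 to 10.2 in replicates 3 and 4, *fog-3* from 11.8 to 17.3 and from 5.81 to 10.1, and *fem-3* from 8.7 to 11.3 and from 12 to 22.4. Within a library, the log2 ratio of *fog-3* to *fem-3* was 0.23, 0.99, −0.87 and −0.24 under the non-Tg label and 0.57, 0.16, −1.94 and −1.39 under the *smrd-1* Δ#1 label. The ratio was above 0 in every library numbered 1 or 2 and below 0 in every library numbered 3 or 4. Between labelled groups it differed by −0.68 (two-sided exact permutation test over 70 arrangements, p = 0.343, smallest possible p = 0.0286), by −0.25 within replicates 1 and 2 and by −1.11 within replicates 3 and 4. Without 1 library at a time this difference ran from −1.08, without *smrd-1* Δ#1 replicate 1, to −0.25, without *smrd-1* Δ#1 replicate 3. The log2 ratio of *fog-1* to *tra-1* differed by −0.07 (exact permutation p = 0.8).

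Sperm genes moved with the same division of replicates. Transcripts of 31 major sperm protein (*msp*) genes, made in developing sperm, summed to between 857 and 1332 CPM in replicates 1 and 2 and between 1547 and 2951 in replicates 3 and 4. Reads that aligned to several places were dropped in counting, so sums over families of similar genes, such as *msp* and *vit*, may be partial. These 31 genes are among the 54 sperm genes that follow. Of all 54 sperm genes listed, 49 were higher in replicates 3 and 4 of both groups, beside 21.4% of all genes tested, so in these libraries *fog-1* and *fog-3* were low where most sperm genes were high. The summed level of 54 sperm genes ranged from 1024 to 2277 CPM under the non-Tg label and from 1352 to 3389 under the *smrd-1* Δ#1 label. Between labelled groups 52 had fold changes above 0 and 2 below, with a median of 0.47 on the log2 scale. edgeR called 0 of the 54, beside 0.155% of all genes, and DESeq2 called 0, beside 1.71%. With the division of replicates as a covariate, edgeR called 10, beside 5.53%, and DESeq2 called 25, beside 15.4%. *spe-44*, a transcription factor of early spermatogenesis, was not apart in this way in both groups. Under the non-Tg label it was at 16.8 and 16.7 CPM in replicates 1 and 2 and 26.4 and 28.5 in replicates 3 and 4. Under the *smrd-1* Δ#1 label it was at 21.5 and 25.1 against 22.8 and 23.1. Of 7 markers of the soma, 4 were lower in replicates 3 and 4 of both groups, beside 22.1% of all genes, and *ges-1*, *rgef-1* and *dpy-7* were not apart in this way. Among the 4, *unc-54*, the body wall muscle myosin, was at 5916 to 6572 CPM in replicates 1 and 2 and 3005 to 4172 in replicates 3 and 4.

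Apart by replicate number in both groups were 1 of 12 oocyte genes and 0 of 6 vitellogenin genes, beside 43.5% of all genes. Under the *smrd-1* Δ#1 label, though, the summed levels were higher in replicates 3 and 4 than in replicates 1 and 2. The oocyte sums there were 1885 and 1388 against 819 and 1018 CPM, and the vitellogenin sums 18352 and 12312 against 6583 and 8549. Under the non-Tg label the 2 sets of replicates overlapped (oocyte 1066 and 610 against 852 and 527, vitellogenin 6596 and 3131 against 5639 and 2249). Summed over 12 oocyte genes the level was 527 to 1066 CPM under the non-Tg label and 819 to 1885 under the *smrd-1* Δ#1 label, and the 6 vitellogenin genes gave 2249 to 6596 and 6583 to 18352 CPM. The yolk sums overlapped only in the values 6583 and 6596 (two-sided exact permutation p = 0.0571, and p = 0.143 for the oocyte sum). By replicate number the yolk sum was higher under the *smrd-1* Δ#1 label in 4 of 4 pairs, but the labels name no pairing of libraries. All 6 vitellogenin genes had an unadjusted p under 0.05 by edgeR, beside 7.74% of all genes, and for 4 of them the groups did not overlap, beside 5.2%. edgeR called 0 of the 6, beside 0.155% of all genes, and DESeq2 called 3, beside 1.71%. With the division of replicates as a covariate, edgeR called 2, beside 5.53%, and DESeq2 called 4, beside 15.4%. Of the 12 oocyte genes, 7 had an unadjusted p under 0.05 by edgeR, beside 7.74% of all genes. edgeR and DESeq2 called 0 of the 12, beside 0.155% and 1.71%. With the covariate, edgeR called 0 of the 12, beside 5.53%, and DESeq2 called 9, beside 15.4%. The 8 general germline genes summed to 1195 to 1318 CPM under the non-Tg label and 1289 to 1464 under the *smrd-1* Δ#1 label (two-sided exact permutation p = 0.0571). All 8 had fold changes above 0, beside 8167 of the 16808 genes tested, and 2 had an unadjusted p under 0.05 by edgeR, beside 7.74%. edgeR and DESeq2 called 0 of the 8, beside 0.155% and 1.71% of all genes. With the covariate, edgeR called 0 of the 8, beside 5.53%, and DESeq2 called 2, beside 15.4%. Their fold changes ranged from 0.06 on the log2 scale for *glh-1*, a germline helicase, to 0.34 for *deps-1*. The groups did not overlap for *pgl-1* (0.19, edgeR adjusted p = 0.618), a P granule protein, beside 5.2% of all genes. The part of these cell types, and of the stage of the animals, in the values of *fog-1*, *fog-3* and *fem-3* was not tested. In whole animals, fewer cells of a type and less RNA per cell cannot be told apart.

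**Figure D4:**
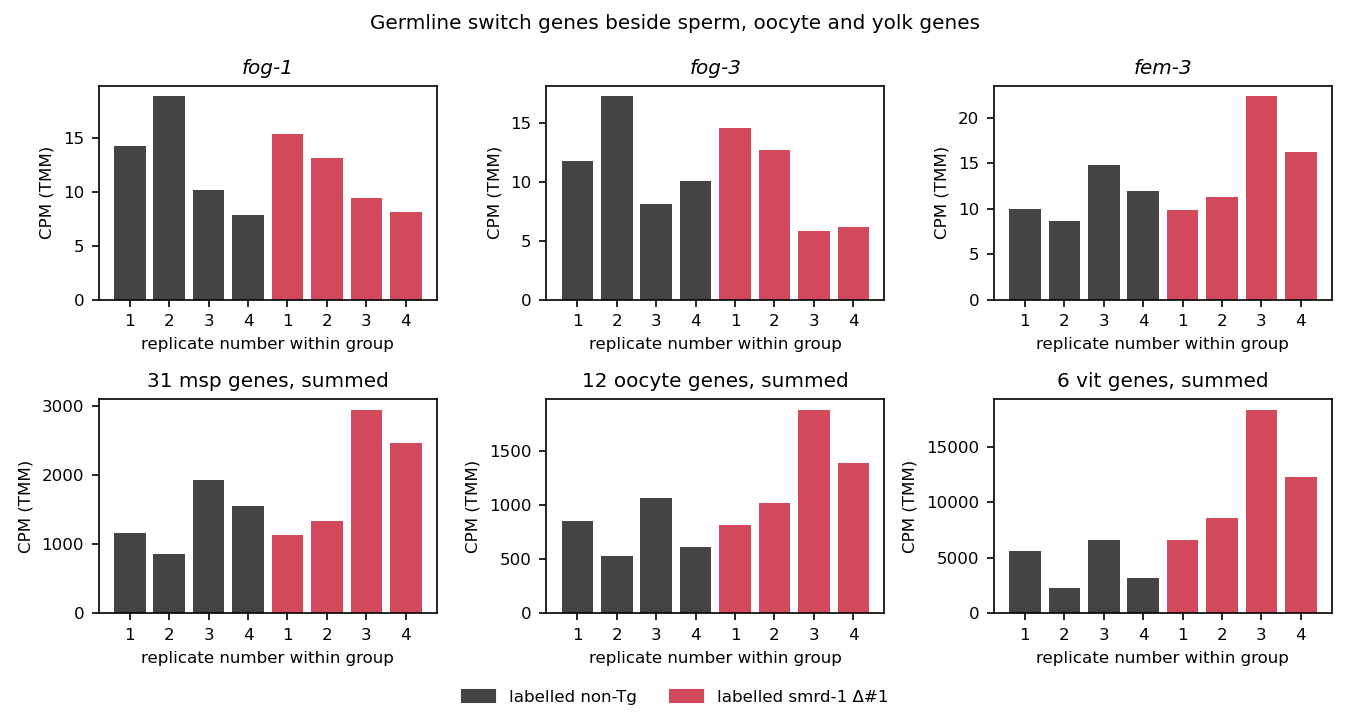
CPM after TMM scaling (y axes, from 0) in the 8 libraries (bars, coloured by labelled group, numbered by replicate) for fog-1, fog-3 and fem-3 and for the summed levels of 31 msp genes, 12 oocyte genes and 6 vitellogenin (vit) genes. Replicates 3 and 4 are low for fog-1 and fog-3 and high for fem-3 and the msp sum in both groups; the vit sum is highest, at 18352, in smrd-1 Δ#1 replicate 3.

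Other genes of the pathway gave a like picture. Of 41 further names, from the X signal elements and SDC proteins to regulators of *tra-2* and *fem-3* mRNA and TRA-1 targets, 39 matched a gene and passed the filter. None of the 39 was called by edgeR (0 genes), beside 0.155% of all genes, and 3 reached an unadjusted p under 0.05 (7.69%, beside 7.74%). DESeq2 called 0 of the 39, beside 1.71%, with 2 at an unadjusted p under 0.05, beside 10.8%. There were 25 fold changes above 0 and 14 below, with a median of 0.04 on the log2 scale. Over all genes tested 8167 were above 0 and 8641 below, with a median of −0.01. *nos-2*, a Nanos family RNA regulator, was at 4.56 ± 1.87 CPM (SD, n = 4) under the non-Tg label and 9.67 ± 5.11 (SD, n = 4) under the *smrd-1* Δ#1 label, a log2 fold change of 1.08 (SE 0.431, edgeR adjusted p = 0.617). *tra-4*, a zinc finger protein that promotes female fates, was at 17.4 ± 1.87 and 13.5 ± 2.2 CPM, a log2 fold change of −0.37 (SE 0.144, edgeR adjusted p = 0.612). *daz-1*, an RNA-binding protein needed for oogenesis, was at 88.6 ± 12 and 108 ± 14.6 CPM, a log2 fold change of 0.29 (SE 0.125, edgeR adjusted p = 0.639). With the division of replicates as a covariate, edgeR called *tra-4* alone of the 39 (log2 fold change −0.37, adjusted p = 0.0406), beside 5.53% of all genes, a call lost in the edgeR fit blocked on replicate number (adjusted p = 0.102). DESeq2 with the covariate called 6, beside 15.4%: *sdc-3*, *gld-1*, *nos-2*, *gld-3*, *tra-4* and *sup-26*.

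Direct regulators of the 2 translational switches, named here after their values were seen, included *gld-1*, which represses *tra-2* mRNA, at 301 ± 60.9 and 393 ± 108 CPM (SD, n = 4 each, edgeR adjusted p = 0.675). With the covariate its adjusted p was 0.0338 by DESeq2 and 0.0796 by edgeR. Its partner *fog-2* was at 8.2 ± 1.41 and 10.4 ± 2.82 CPM (SD, n = 4 each, edgeR adjusted p = 0.699). *fbf-1* and *fbf-2*, which repress *fem-3* mRNA, were at 29.7 ± 0.579 against 30.7 ± 1.46 CPM and at 34.8 ± 3.07 against 35.1 ± 3.31. Reads shared by *fbf-1* and *fbf-2*, near-identical copies, or by *fog-2* and its paralogs were dropped in counting, so these levels are uncertain.

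Genes whose pattern over the 8 libraries was most like that of a member were sought among 10421 genes of at least 5 CPM, by Pearson r of log2 CPM. For *fog-1* they were *C39D10.8* (r = 0.993), *vig-1* (0.989) and *ZK622.4* (0.987), and *fog-3* ranked 1417 at 0.838. For *fog-3* they were *rsbp-1* (0.994), *alp-1* (0.993) and *set-18* (0.988), and *fem-3* ranked 10125 of these genes at −0.954. For *tra-2* they were *spop-1* (0.985), *let-607* (0.975) and *Y82E9BR.14* (0.966), and *tra-3* ranked 507 at 0.792. All points share the libraries, their depth and the division of replicates, so these values are a description and carry no test.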

How the data were processed

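RNA of 8 whole-worm libraries was sequenced by the authors as 150-base pairs, aligned with STAR 2.7.11b to WBcel235 and counted with featureCounts 2.0.1, and the deposited values are raw counts per gene. The counting command names annotation release 112 and the methods 113. It sets no option for pairs, strand or multiply aligned reads, so a read pair could add 2 counts and strand was unused. Every count of *xol-1* and of *her-1* was even, so the numbers of read pairs behind them may be smaller. No exon of a member overlaps another gene's. Gene symbols, and per-sample columns mapped by label, came from the deposited tables (unit: other), whose comparison columns hold the authors' DESeq2 results and were not used. Coordinates and merged exon lengths came from the deposited count table, and the span of each member was the same in annotation release 115.

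Counts were tested with edgeR 4.0.16 (TMM, filterByExpr by group, quasi-likelihood test, Benjamini-Hochberg adjustment over 16808 genes, threshold 0.05), which was tested on simulated data. DESeq2 1.42.0 was the alternative tool, in R 4.3.3, and others changed scaling, filters, covariates and libraries. Intervals are 95%, and log2 CPM used a prior count of 2 and ratios 0.5 counts added. The members and lists were chosen with earlier results of these data known. Genes named by rule were the 10 members, *smrd-1*, pathway genes at an unadjusted p under 0.05, defining markers and the 3 genes most like *fog-1*, *fog-3* and *tra-2*. Others were named outside this rule, with their values known, among them *deps-1*, *pgl-1*, *lov-1*, the *cwp* genes, *ges-1*, *rgef-1*, *sdc-3*, *gld-3* and *sup-26*. Same-numbered libraries of the 2 groups deviated together (correlations 0.221 to 0.489), but so did differently numbered libraries within replicates 1 and 2 or 3 and 4 (0.255 to 0.516), and 4 of 8 libraries correlated best with their own number. The main tests are unpaired, and the replicate number served as a block in an alternative only. No 2 libraries of a group agreed within sampling noise (chi-square per degree of freedom at least 28.6).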

Additional observations from a re-analysis of the deposited data

How the results depend on the processing

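Of 276 recomputed values, 242 kept their direction, their side of the threshold and, for counts of calls, a number within 1.5 times. No member was called except *fog-3* in replicates 3 and 4 alone (−0.60, 1 member called). All-gene calls, 26 in the main test, were 287 by DESeq2, 929 with the replicate division as covariate, 2585 by DESeq2 with it, 273 in replicates 1 and 2 alone, 2078 in replicates 3 and 4 alone, and 7 to 14 without 1 library at a time. Of the 39 pathway genes, edgeR with the covariate called 1, beside 5.53% of all genes, and DESeq2 with it called 6, beside 15.4%. In replicates 3 and 4 alone edgeR called 7 pathway genes, beside 12.2% of all genes. Directions turned for *tra-1* (0.037) and *tra-3* (−0.14) in replicates 3 and 4 alone, for *tra-2* (0.024) and *fem-2* (−0.021) in replicates 1 and 2 alone, and for *tra-3* (−0.0014) with the covariate. With the replicate number as a block, *tra-3* was at −0.0008; the block changed no call of a member (*fem-3* 0.35, adjusted p = 0.167 by edgeR) and left 26 all-gene calls. Without 1 library at a time, *tra-1* ran from −0.10 to 0.0054, *tra-3* from −0.044 to 0.035, *fog-1* from −0.33 to 0.10, *smrd-1* from 0.77 to 0.85, and the difference in the log2 ratio of *fog-1* to *tra-1* from −0.23 to 0.12. The cause was not tested. With at least 10 counts asked of every library *her-1* gave no value, as it had 6 counts in *smrd-1* Δ#1 replicate 1.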

Other observations

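Among the TRA-1 targets of the soma, singled out here after their values were seen, *mab-3*, a DM domain factor of male development, was at 6.75, 9.95, 9.82 and 14.3 CPM in the libraries labelled non-Tg and at 13.5, 15.6, 5.16 and 7.42 in those labelled *smrd-1* Δ#1. Replicates 3 and 4 were not apart from replicates 1 and 2 in the first group and were lower in the second. Its log2 fold change was 0.03 (SE 0.367, edgeR adjusted p = 0.979). *dpy-7*, a cuticle collagen of the hypodermis, was at 183, 143, 209 and 287 CPM and at 233, 265, 55.9 and 97.6 CPM, so that its lowest libraries were *smrd-1* Δ#1 replicates 3 and 4. The difference between the 2 replicate sets was not tested for either gene.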
